A study of Homo sapiens with 6 samples.

Results

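Interleukin 6 and its relatives signal through a shared receptor chain, gp130. The 10 genes described here are 3 cytokines of that family (IL6, IL11 and LIF), 4 receptor chains (IL6R, IL6ST, LIFR and OSMR), the transcription factor STAT3, and 2 genes that STAT3 induces (SOCS3 and PIM1). They were picked by name in the GENCODE 29 annotation, and each name matched 1 of the 58735 gene IDs measured, 10 in all. The labels name the cells of all 6 libraries NCI-N87, an established line of human gastric carcinoma known to carry an ERBB2 amplification. RNA was sequenced from KRT17 knockout cells named KO2 (2 libraries), KRT17 knockout cells named KO1 (2 libraries) and wild-type cells (WT, 2 libraries). The labels do not say whether KO1 and KO2 differ by guide or by clone, nor whether replicates were separate cultures, so the p-values speak only for the scatter among these 6 libraries, part or all of which may be technical. In bulk RNA, fewer cells of a type and less RNA per cell cannot be told apart.

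IL6, IL11 and LIF each first bind their own receptor chain, and the pair then recruits gp130, the product of IL6ST. Janus kinases bound to the receptor tails phosphorylate STAT3, which enters the nucleus and turns on target genes, among them SOCS3, whose protein feeds back to block the receptor. In the stomach, IL11 and IL6 signalling through gp130 and STAT3 is known from mouse models for its part in epithelial growth and tumour formation. The series title sets IL6 beside keratin 17, YAP and loss of E-cadherin in diffuse gastric cancer.

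Values are FPKM, fragments scaled by exon length and sequencing depth, so that levels of different genes may be compared. The fold of a gene is the ratio of its group means in FPKM. A log2 difference is a difference of log2(FPKM + 1), given with its standard error, and it understates the change of low genes. A gene was called at a limma adjusted p (Benjamini-Hochberg, over 16046 tested genes) under 0.05. The comparisons of KO1 and of KO2 with WT share the WT libraries.

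The knockout libraries departed widely from WT. KRT17 was at 11.3 and 10.4 FPKM in KO2 and 2.29 and 2.40 in KO1, against 739 and 753 in WT. ERBB2 was at 5.27 and 5.30 FPKM in KO2 and 5.57 and 6.07 in KO1, against 1355 and 1420 in WT, so the high ERBB2 level that goes with the line's amplification was seen only in the WT libraries. Whether the libraries labelled KO2 and KO1 come from the same line as those labelled WT was not tested, and every difference from WT below is a difference between libraries so labelled. Library depth was 17599759 to 22852340 reads. In the knockout average, 80.6% of the tested genes were called, so a call of 1 gene is common here. Of 8 epithelial markers, 7 were lower and MUC1 was higher in the knockout average. KRT19 had 0 reads in KO2, and the summed level of the 8 was 369.7 and 370.4 FPKM in KO2 and 410.1 and 421 in KO1, against 4998 and 5164 in WT. Of 8 fibroblast markers 4 were tested (LUM, DCN, COL1A1 and PDGFRB) and all 4 were called higher. They were under 1 FPKM in WT and entered the test only through knockout libraries, so this direction was built in. Of the untested markers, COL3A1 averaged 0.322 FPKM in the knockouts, COL1A2 0.0101 and THY1 0.00816. In WT these were at 0.00799, 0 and 0.0262, and PDGFRA had 0 reads in every library. The 8 markers summed to 55.3 and 57.8 FPKM in KO2 and 44.5 and 45.0 in KO1, against 0.760 and 0.907 in WT. The 6 leukocyte markers summed to 2.07 and 2.19 FPKM in KO2, 1.15 and 1.24 in KO1 and 1.38 and 1.43 in WT, and CD68 had 0 reads in both knockout groups. The 5 endothelial markers stayed under 1 FPKM in sum in every library. The part of these marker differences in the results below was not tested.

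The upstream sequences of the 2 cytokine genes that were higher in the knockouts, and of the receptor gene with the highest fold, are shown because the results on ligands and receptors turn on these 3 genes. The sequences are RefSeq promoters (GRCh38.p14, 250 bases before to 50 after a start site), each on its gene's strand. Capitals mark matches to 3 motifs searched on both strands: TTCNNNGAA, which STAT dimers bind, TGANTCA for AP-1, and the NF-kB motif, whose match in IL6 is spelled out in its sequence. The motifs do not overlap one another in these windows.

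IL6, chr7:22726950-22727249, plus strand, with the NF-kB letters in capitals: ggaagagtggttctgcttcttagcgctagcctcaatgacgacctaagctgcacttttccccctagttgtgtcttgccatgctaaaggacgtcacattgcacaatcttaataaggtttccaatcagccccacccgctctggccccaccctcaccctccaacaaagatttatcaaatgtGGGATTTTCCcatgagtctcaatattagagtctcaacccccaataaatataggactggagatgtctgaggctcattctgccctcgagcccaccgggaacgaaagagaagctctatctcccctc

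IL11, chr19:55370414-55370713, minus strand, with the AP-1 letters in capitals: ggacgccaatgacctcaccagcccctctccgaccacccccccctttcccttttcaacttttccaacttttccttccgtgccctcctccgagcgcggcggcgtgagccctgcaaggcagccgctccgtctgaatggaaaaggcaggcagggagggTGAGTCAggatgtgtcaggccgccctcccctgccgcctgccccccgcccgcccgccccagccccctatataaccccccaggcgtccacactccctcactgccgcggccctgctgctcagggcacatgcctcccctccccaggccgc

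LIFR, chr5:38557418-38557717, minus strand, 1 of its 3 RefSeq starts, with the STAT letters in capitals: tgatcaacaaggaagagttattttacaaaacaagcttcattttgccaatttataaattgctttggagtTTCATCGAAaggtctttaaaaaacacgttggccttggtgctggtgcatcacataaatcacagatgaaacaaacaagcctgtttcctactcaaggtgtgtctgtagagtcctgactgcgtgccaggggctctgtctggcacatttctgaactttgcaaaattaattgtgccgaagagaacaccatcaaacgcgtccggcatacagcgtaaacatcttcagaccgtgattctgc

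Of the 10 genes, 9 matched the promoter table with 12 start sites, and LIF was not matched. The STAT letters stood in 2 of the 12, both of LIFR, against 7.66% of all 35116 promoters. AP-1 letters stood in 3 of the 12 (IL11, IL6R and OSMR), against 7.71% of all. The NF-kB letters stood in 1 of the 12, that of IL6, against 0.558% of all. No STAT letters lay in either SOCS3 window (78360876 to 78361175 and 78359618 to 78359917). Neither window holds the bases just upstream of the GENCODE start of SOCS3 at 78360077, so that stretch was not searched. A match is a description of letters in these windows and not a measured binding site.

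Among the cytokines, IL6 and IL11 were higher in the knockouts and LIF was lower. IL6 (ENSG00000136244, GRCh38 chromosome 7, 22725884 to 22732002, plus strand) encodes the founding cytokine of the family. It was at 0.271 and 0.547 FPKM in KO2 and 5.74 and 5.76 FPKM in KO1, against 0 and 0 in WT. These values rest on 11 and 21 reads in KO2 and 277 and 271 in KO1, against no read in WT. The knockout libraries lay above WT without overlap, and the KO1 libraries far above those of KO2. Set against a floor of 3 reads per WT library, IL6 was at least 78.7-fold higher in KO1 and at least 5.60-fold higher in KO2. Its log2 difference was 2.76 ± 0.11 in KO1 (limma adjusted p = 1.29e-05) and 0.49 ± 0.11 in KO2 (limma adjusted p = 0.01001). The sizes depend on the pseudocount: with 0.1 FPKM the log2 difference was 5.87 in KO1 and 2.29 in KO2. The KO2 call was near its threshold without WT replicate 1 (limma adjusted p = 0.0496) and was lost without WT replicate 2 (limma adjusted p = 0.0504, range 5.65e-05 to 0.0504 over 9 alternatives). The call of the knockout average (1.62 ± 0.10, adjusted p = 4.23e-05) was lost with KO1 and KO2 as 1 group of 4 (limma adjusted p = 0.123, range 9.53e-07 to 0.123 over 10 alternatives).

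IL11 (ENSG00000095752, chromosome 19, 55364389 to 55370463, minus strand) encodes interleukin 11, which signals through IL11RA and gp130. It was at 6.88 and 6.49 FPKM in KO2 and 11.4 and 9.75 FPKM in KO1, against 1.35 and 0.836 FPKM in WT. Every knockout library exceeded both WT libraries, and KO1 exceeded KO2. The fold was 6.11 in KO2 and 9.66 in KO1, and the log2 difference was 1.89 ± 0.14 in KO2 (limma adjusted p = 1.08e-04) and 2.47 ± 0.14 in KO1 (limma adjusted p = 4.03e-05). The WT libraries held 78 and 41 reads, so the WT level is the least precise term of this fold.

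LIF (ENSG00000128342, chromosome 22, 30240447 to 30246851, minus strand) encodes leukaemia inhibitory factor, which binds LIFR. It was at 9.99 and 9.15 FPKM in KO2 and 13.7 and 13.2 FPKM in KO1, against 25.8 and 27.9 FPKM in WT. The knockout libraries all lay below WT, and those of KO2 below those of KO1. LIF was the only one of the 10 genes called lower, at -1.40 ± 0.06 log2 in KO2 (limma adjusted p = 1.42e-05) and -0.95 ± 0.06 in KO1 (limma adjusted p = 5.95e-05). The antisense gene AC004264.1 overlaps LIF and was at 0.771 and 0.475 FPKM in KO2 and 0.864 and 0.831 in KO1, against 2.04 and 1.78 in WT. No source used here gives the strand setting of the counting, so reads of such overlapping pairs cannot be told apart.

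The make-up of the cytokine mRNA therefore differed. IL11 stood at 0.688 and 0.710 of the LIF level in KO2 and 0.832 and 0.741 in KO1, against 0.0524 and 0.0300 in WT. The sum of the 3 cytokines was 16.7 ± 0.670 FPKM in KO2 and 29.7 ± 1.53 in KO1, against 27.9 ± 1.10 in WT (SD, n = 2 each). The sum in KO1 exceeded that in WT by little more than the spread of either group, with overlap between single libraries. Sums and ratios were not tested and are given as descriptions.

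**Figure D1:**
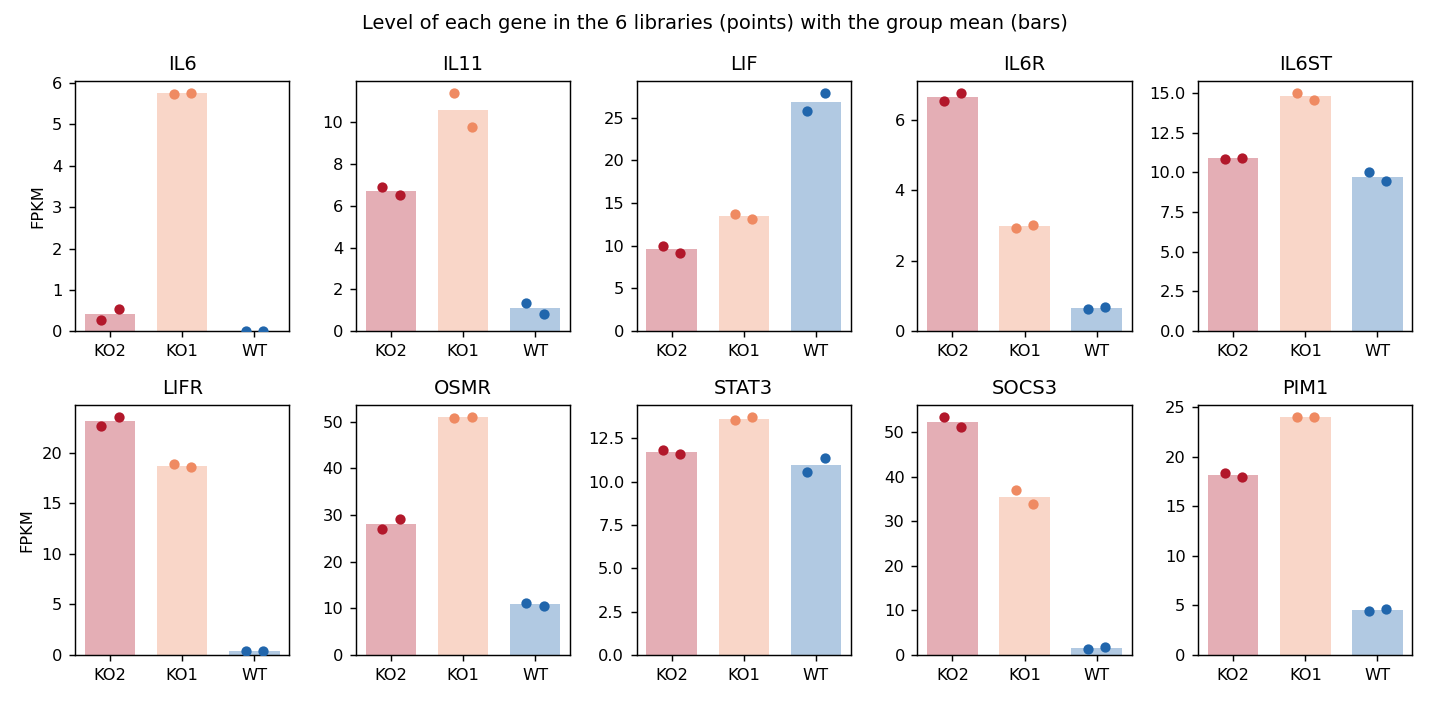
FPKM of each of the 10 genes (y axis, linear, own scale per panel) in KO2, KO1 and WT (x axis); points are single libraries and bars are means of 2. In KO2, KO1 and WT, LIFR averaged 23.1, 18.7 and 0.410 FPKM and SOCS3 52.3, 35.5 and 1.55 FPKM, while LIF was highest in WT at 26.8 FPKM.

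All 4 receptor chains were higher in both knockout groups, and LIFR the most. LIFR (ENSG00000113594, chromosome 5, 38474963 to 38608354, minus strand) encodes the chain that binds LIF and pairs with gp130. It was at 22.6 and 23.6 FPKM in KO2 and 18.8 and 18.6 FPKM in KO1, against 0.429 and 0.390 FPKM in WT. No library of a knockout group came near WT, and the 2 knockout groups did not overlap. The fold was 56.4 in KO2 and 45.7 in KO1, with log2 differences of 4.10 ± 0.04 (limma adjusted p = 2.58e-07) and 3.81 ± 0.04 (limma adjusted p = 3.23e-07). Of the 16046 tested genes, 100 had a higher difference in the knockout average. The overlapping LIFR-AS1 was at 2.06 and 1.80 FPKM in KO2 and 1.25 and 1.17 in KO1, against 0.0636 and 0.0961 in WT.

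OSMR (ENSG00000145623, chromosome 5, 38845858 to 38945596, plus strand) encodes the oncostatin M receptor chain, and its start lies 237504 bases from that of LIFR. It was at 27.0 and 29.1 FPKM in KO2 and 50.9 and 51.1 FPKM in KO1, against 11.1 and 10.5 FPKM in WT. KO1 was highest in both of its libraries, KO2 intermediate and WT lowest, with no overlap. The log2 difference was 1.30 ± 0.05 in KO2 (2.59-fold, limma adjusted p = 8.71e-06) and 2.14 ± 0.05 in KO1 (4.71-fold, limma adjusted p = 1.95e-06). OSMR overlaps RICTOR, a gene of the mTORC2 kinase complex on the other strand, which was at 12.5 and 13.2 FPKM in KO2 and 16.0 and 15.3 in KO1, against 2.72 and 2.78 in WT. The ligand of OSMR, OSM, was at most 0.0773 FPKM in any library and was not tested.

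IL6R (ENSG00000160712, chromosome 1, 154405193 to 154469450, plus strand) encodes the chain that binds IL6 itself. It was at 6.53 and 6.76 FPKM in KO2 and 2.92 and 3.03 FPKM in KO1, against 0.617 and 0.700 FPKM in WT. KO2, not KO1, was highest, the reverse of the order of IL6. The fold was 10.1 in KO2 and 4.51 in KO1, with log2 differences of 2.20 ± 0.06 (limma adjusted p = 3.29e-06) and 1.26 ± 0.06 (limma adjusted p = 2.01e-05).

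IL6ST (ENSG00000134352, chromosome 5, 55935095 to 55994993, minus strand) encodes gp130, the signalling chain shared by the family. It was at 10.9 and 10.9 FPKM in KO2 and 14.998 and 14.6 FPKM in KO1, against 9.998 and 9.43 FPKM in WT. KO2 lay just above WT and KO1 clearly above both. The log2 difference was 0.15 ± 0.04 in KO2 (limma adjusted p = 0.0178) and 0.56 ± 0.04 in KO1 (limma adjusted p = 1.00e-04). The KO2 call was lost without WT replicate 2 (adjusted p = 0.0742), without KO2 replicate 1 (0.0612) and without KO2 replicate 2 (0.0661), and the limma adjusted p ranged from 7.90e-06 to 0.0742 over 11 alternatives. The call of the knockout average (0.35 ± 0.03, adjusted p = 3.04e-04) was lost with the knockouts as 1 group of 4 (limma adjusted p = 0.0814, range 2.49e-09 to 0.0814 over 12 alternatives). The pseudogene IL6STP1 was at 0 in every library, and AC016596.1, a pseudogene of 78 bases inside IL6ST, was at 19.6 and 24.2 FPKM in KO2 and 23.6 and 25.4 in KO1, against 34.4 and 40.5 in WT.

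Relative to gp130 mRNA, LIFR, IL6R and OSMR were each more abundant in the knockouts. LIFR stood at 2.09 and 2.16 of the IL6ST level in KO2 and 1.26 and 1.28 in KO1, against 0.0429 and 0.0414 in WT. IL6R stood at 0.601 and 0.620 of the IL6ST level in KO2 and 0.194 and 0.208 in KO1, against 0.0617 and 0.0743 in WT. OSMR stood at 2.49 and 2.67 in KO2 and 3.39 and 3.51 in KO1, against 1.11 and 1.12 in WT. LIFR exceeded IL6ST in all 4 knockout libraries and in neither WT library, whereas OSMR exceeded IL6ST in all 6. The sum of the 4 receptor chains was 68.7 ± 2.35 FPKM in KO2 and 87.5 ± 0.289 in KO1, against 21.6 ± 0.809 in WT (SD, n = 2 each).

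**Figure D2:**
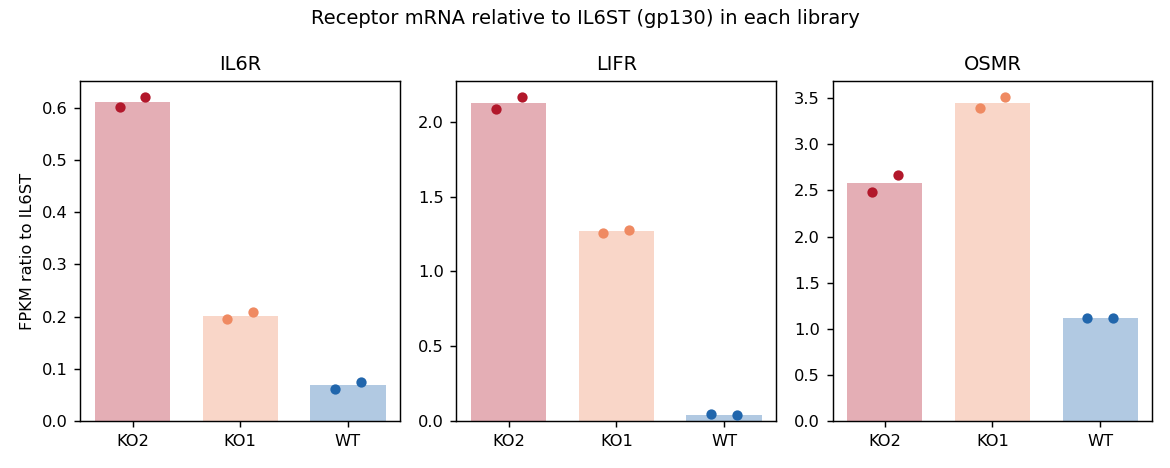
Ratio of FPKM of IL6R, LIFR and OSMR to that of IL6ST in the same library (y axis, linear, own scale per panel) in KO2, KO1 and WT (x axis); points are single libraries and bars are means of 2. LIFR averaged 2.12 in KO2 and 1.27 in KO1, against 0.0422 in WT.

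STAT3 itself differed little, while both of its target genes listed here were well above WT. STAT3 (ENSG00000168610, chromosome 17, 42313324 to 42388568, minus strand) was at 11.8 and 11.6 FPKM in KO2 and 13.5 and 13.8 FPKM in KO1, against 10.6 and 11.3 FPKM in WT. The KO2 libraries exceeded WT by less than the WT libraries differed between themselves, and the KO1 libraries stood clear of both. STAT3 rose in KO1 (0.29 ± 0.04 log2, limma adjusted p = 0.00168). In KO2 it was not called (0.09 ± 0.04, limma adjusted p = 0.107), but it was with quantile normalization (adjusted p = 0.00994), with voom on recovered reads (6.22e-05) and without WT replicate 2 (0.0376), and the adjusted p ranged from 6.22e-05 to 0.408 over 11 alternatives. The call of the knockout average (0.19 ± 0.04, adjusted p = 0.00497) was lost with the knockouts as 1 group of 4 (limma adjusted p = 0.0907, range 2.81e-07 to 0.0907 over 12 alternatives).

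SOCS3 (ENSG00000184557, chromosome 17, 78356778 to 78360077, minus strand) encodes the feedback inhibitor that binds gp130 and Janus kinases. It was at 53.5 and 51.1 FPKM in KO2 and 37.1 and 33.9 FPKM in KO1, against 1.37 and 1.73 FPKM in WT. The knockout libraries lay far above WT, and KO2 above KO1. The fold was 33.7 in KO2 and 22.9 in KO1, with log2 differences of 4.39 ± 0.08 (limma adjusted p = 1.23e-06) and 3.84 ± 0.08 (limma adjusted p = 1.78e-06). SOCS3 was the most abundant of the 10 genes in KO2, the second in KO1 after OSMR and the sixth in WT. Its level was 4.53 and 4.41 times that of STAT3 in KO2 and 2.74 and 2.47 times in KO1, against 0.130 and 0.153 times in WT.

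PIM1 (ENSG00000137193, chromosome 6, 37170203 to 37175426, plus strand) encodes a serine/threonine kinase that promotes survival. It was at 18.3 and 18.0 FPKM in KO2 and 23.96 and 24.04 FPKM in KO1, against 4.45 and 4.59 FPKM in WT. The groups did not overlap, and KO1 was highest. The fold was 4.02 in KO2 and 5.31 in KO1, with log2 differences of 1.80 ± 0.03 (limma adjusted p = 9.60e-07) and 2.18 ± 0.03 (limma adjusted p = 5.76e-07).

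Of the 10 genes, 9 were called higher in the knockout average and 1 lower, against 40.5% and 40.1% of all tested genes. In KO1 alone, 9 were higher and 1 lower (39.3% and 38.6% of all), and in KO2 8 were higher, 1 was lower and STAT3 was not called (39.1% and 39.8% of all). In all 4 knockout libraries 9 of the 10 lay above both WT libraries and LIF lay below both, as did 39.9% and 40% of all tested genes. For KO1 alone these shares of all genes were 45.1% and 44%, and for KO2 alone 44.2% and 44.3%. All 10 passed the filter of 1 FPKM in 2 libraries. IL6, IL6R and LIFR passed it only through knockout libraries, and IL11, at 1 FPKM or more in 1 WT library, also needed a knockout library to pass, so that a difference was built into the entry of IL6, IL6R and LIFR and was favoured in that of IL11, and these counts support nothing by themselves. The median log2 difference over the 10 in the knockout average was 1.72, against 0.02 over all tested genes.

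**Figure D3:**
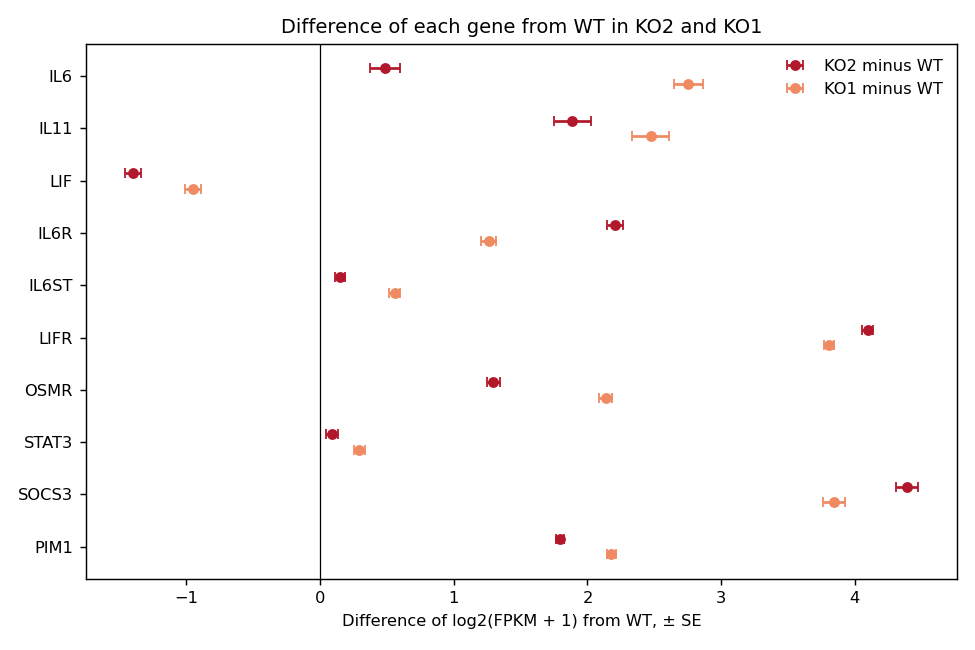
Difference of log2(FPKM + 1) from WT (x axis) for each gene (y axis) in KO2 and KO1; points are limma estimates and bars are ± SE. Points of LIFR and SOCS3 lie farthest right, between 3.81 and 4.39, and LIF alone lies left of 0.

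The knockout groups also differed from each other. IL6 was lower in KO2 than in KO1 by the widest margin, with 0.409 ± 0.195 FPKM in KO2 and 5.75 ± 0.0164 in KO1 (SD, n = 2 each), a log2 difference of -2.27 ± 0.11 (limma adjusted p = 6.42e-04). IL6 passed the filter only through its KO1 libraries. A lower level in KO2 was thus built into its entry, and its call here and in the counts below supports nothing by itself. OSMR was also lower in KO2 (-0.84 ± 0.05, limma adjusted p = 8.19e-04), and so were LIF (-0.45 ± 0.06, adjusted p = 0.00629), IL6ST (-0.41 ± 0.04, 0.00285) and PIM1 (-0.38 ± 0.03, 0.00185). IL6R was higher in KO2 than in KO1 (0.94 ± 0.06, limma adjusted p = 0.00103), as were SOCS3 (0.55 ± 0.08, adjusted p = 0.00967) and LIFR (0.29 ± 0.04, 0.00745). IL11 (-0.59 ± 0.14, limma adjusted p = 0.0350) and STAT3 (-0.21 ± 0.04, adjusted p = 0.0246) were called lower in KO2. In all, 3 of the 10 were called higher and 7 lower in KO2, against 11.2% and 15% of all tested genes and 26.2% in either direction. The same 3 and 7 did not overlap between the knockout groups, against 29.2% and 35.6% of all genes.

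Several of these calls were lost in refits without 1 library. Such refits hold fewer libraries, so a lost call does not show that it rested on the library left out. IL11 and STAT3 lost their call when any 1 of the 4 knockout libraries was left out (limma adjusted p = 0.0769 to 0.152 for IL11 and 0.0778 to 0.121 for STAT3). LIFR lost it without KO1 replicate 1 (0.0534) or KO1 replicate 2 (0.0590), and SOCS3 without KO1 replicate 2 (limma adjusted p = 0.0568). Over 11 alternatives each, the adjusted p ranged from 1.48e-04 to 0.152 for IL11, 0.00226 to 0.121 for STAT3, 1.21e-06 to 0.0590 for LIFR and 8.94e-08 to 0.0568 for SOCS3. IL11 also lost it with a pseudocount of 0.1 FPKM (limma adjusted p = 0.104) and without a filter (0.0910), and STAT3 without a filter (limma adjusted p = 0.0509). IL6 fell under the filter without either KO1 library.

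The chromosomal neighbours of several of these genes differed in the same direction. Neighbours here are protein-coding genes that were tested and lie no farther than 2 Mb from either end of a gene. Of all tested genes, 40.5% were called higher and 40.1% lower in the knockout average. In KO2 minus KO1 these shares were 11.2% and 15%. All 9 neighbours of LIFR were called higher in the knockout average, lying between 0.93 and 3.92 log2 (median 1.98), against 3.95 for LIFR. All 13 neighbours of OSMR were higher as well, with a median of 1.44, against 1.72 for OSMR, and 6 of the 13 lay above it. LIFR thus stood above each of its 9 neighbours in the knockout average, though 2 of them lay above it in KO1, and OSMR stood in the middle of its own. The stretches overlap, since LIFR and OSMR are each a neighbour of the other.

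For IL6R, 65 of 84 neighbours were called higher and 11 lower in the knockout average, with a median of 0.72 against 1.73 for IL6R. In KO2 minus KO1 66 of the 84 were higher and 2 lower, with a median of 0.50 against 0.94 for IL6R itself. SOCS3 lay above all 40 of its neighbours in the knockout average, whose median was 0.21. In KO2 minus KO1 31 of these 40 were called higher, with a median of 0.32 beside 0.55 for SOCS3. IL6R and SOCS3 therefore lay among neighbours that were mostly higher in KO2. LIFR, also called higher in KO2 than in KO1 (0.29), did not. Of its 9 neighbours 0 were called higher and 5 lower in KO2 minus KO1, with a median of -0.22. IL6, IL6ST, OSMR and PIM1, called lower in KO2, each lay below all of their neighbours in this comparison. The part of position in these differences was not tested.

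STAT3 lay among genes that mostly fell: of 79 neighbours 54 were lower, 16 higher and 9 not called, with a median of -0.47 against 0.19 for STAT3. The neighbours of IL11 were lower in 40 of 56 cases, with a median of -0.54 against 2.18 for IL11, and 1 of them lay above it. Of 46 neighbours of LIF 34 were lower, with a median of -0.49 against -1.17 for LIF. PIM1 was 1.52 log2 above the median of its 28 neighbours, and IL6 was 1.51 above that of its 13. IL6ST differed from the median of its 14 neighbours by 0.34.

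**Figure D4:**
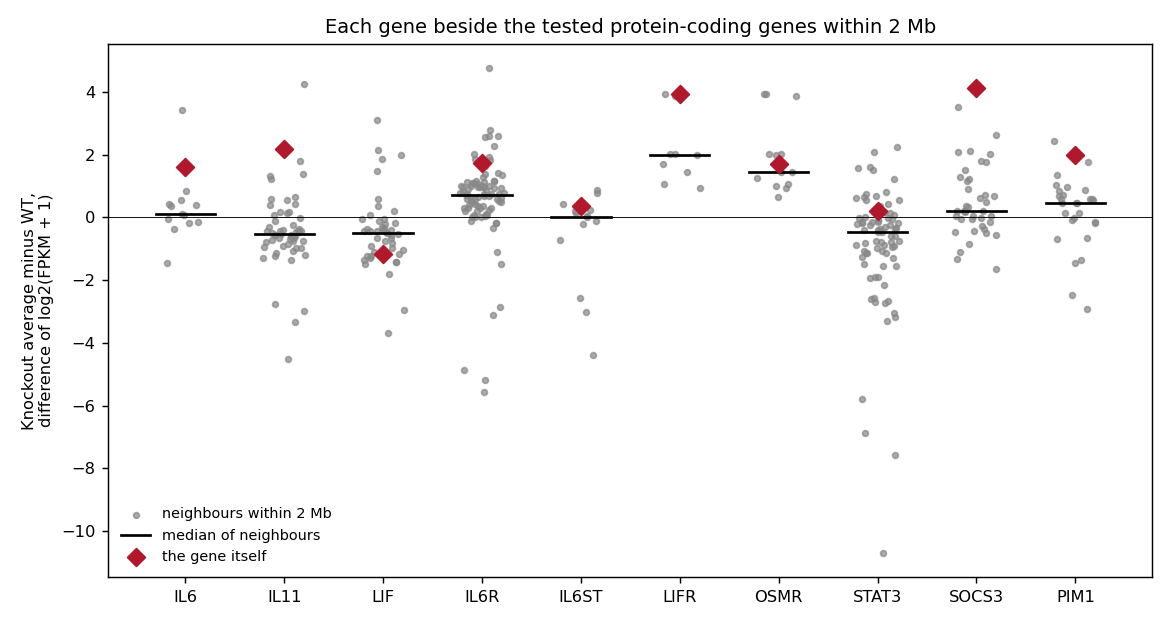
Difference of log2(FPKM + 1), knockout average minus WT (y axis), of each gene (diamond) and of the tested protein-coding genes within 2 Mb (grey points, with their median as a line); genes run along the x axis. All neighbours of LIFR and OSMR lie above 0, and SOCS3 lies above all 40 of its neighbours.

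The other genes of the pathway split in direction. Of 67 further genes in 6 lists 52 were tested, of which 20 were called higher, 24 lower and 8 not called in the knockout average, with a median of -0.15 log2. Of all tested genes, 40.5% were higher and 40.1% lower, with a median of 0.02 log2.

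Among other ligands, 3 of 4 tested genes rose and 1 was not called. EBI3, a subunit shared by IL27 and IL35, was at 11.5 and 11.3 FPKM in KO2 and 16.3 and 17.2 FPKM in KO1, against 0 and 0.0424 FPKM (1 read) in WT. Its log2 difference was 3.86 ± 0.04 (limma adjusted p = 2.15e-07). CNTF rose by 0.44 ± 0.08 (limma adjusted p = 0.00298). CLCF1, not called in the knockout average but called lower in KO2 alone (limma adjusted p = 0.0446), averaged 7.77 ± 0.467 FPKM in KO2 and 9.29 ± 1.38 in KO1, against 9.88 ± 0.769 in WT (SD, n = 2 each). IL27, the partner of EBI3 in the cytokine IL27, had 0 reads in all 6 libraries.

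All 4 tested genes of the list of other receptors and shedding enzymes fell. ADAM10 and ADAM17 are proteases that release the soluble form of the IL6 receptor. ADAM10 fell to 9.36 and 9.82 FPKM in KO2 and 10.2 and 9.49 FPKM in KO1, against 33.0 and 32.2 FPKM in WT (-1.65 ± 0.04 log2, limma adjusted p = 1.93e-06). ADAM17 fell by 0.69 ± 0.06 log2 (limma adjusted p = 2.33e-04). IL27RA, the receptor of IL27, was at -1.43 ± 0.04 log2 (limma adjusted p = 4.19e-06). IL11RA, the chain that binds IL11, averaged 2.40 ± 0.0208 FPKM in KO2 and 1.55 ± 0.0363 in KO1, against 2.88 ± 0.312 in WT. It was called lower in KO1 (-0.60 ± 0.08 log2, limma adjusted p = 9.29e-04) and not in KO2 (-0.19 ± 0.08, limma adjusted p = 0.0668), where IL11 itself was higher in both.

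Kinases and adaptors were 5 higher and 4 lower of 9. JAK3, the least abundant Janus kinase gene in WT, rose to 4.005 ± 0.107 FPKM in KO2 and 2.27 ± 0.105 in KO1, against 0.406 ± 0.0211 in WT (SD, n = 2 each; 1.52 ± 0.05 log2, limma adjusted p = 6.68e-06). TYK2 fell by 0.58 ± 0.04 (limma adjusted p = 9.76e-05). The adaptor GRB2 and the phosphatase PTPN11, which link gp130 to the RAS pathway, fell by 0.72 ± 0.03 and 0.33 ± 0.03 log2 (limma adjusted p = 6.85e-06 and 1.17e-04).

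Of 5 other tested STAT genes 2 rose and 3 fell. STAT5A, within 2 Mb of STAT3 on chromosome 17, was at 9.58 and 9.99 FPKM in KO2 and 15.5 and 14.8 FPKM in KO1, against 1.99 and 2.22 FPKM in WT (2.09 ± 0.05 log2, limma adjusted p = 1.63e-06). STAT5B beside it rose by 1.58 ± 0.04 (limma adjusted p = 2.30e-06). The 2 proteins are close paralogs, and no source used here says how reads shared by both genes were counted, so their levels are uncertain. STAT6 fell by 0.54 ± 0.02 log2 (limma adjusted p = 1.18e-05).

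Inhibitors were 4 higher, 5 lower and 2 not called of 11. CISH, a SOCS family gene known as a STAT5 target, rose by 1.53 ± 0.07 (9.12-fold, limma adjusted p = 1.30e-05), reaching 3.41 ± 0.0946 FPKM in KO2 and 2.26 ± 0.210 in KO1, against 0.311 ± 0.0424 in WT (SD, n = 2 each). The phosphatases PTPN2 and PTPRE fell by 0.83 ± 0.04 and 0.85 ± 0.07 log2 (limma adjusted p = 1.96e-05 and 1.42e-04), and PIAS1 by 0.78 ± 0.07 (limma adjusted p = 2.28e-04). SOCS1, the relative of SOCS3 that restrains interferon signalling, was at most 0.567 FPKM in any library and not tested.

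Other genes described as STAT3 targets did not follow SOCS3 and PIM1 as a group, with 6 higher, 8 lower and 5 not called of 19 and a median of -0.15 log2. VEGFA, the angiogenic factor gene, rose by 1.501 ± 0.04 (3.37-fold, limma adjusted p = 2.41e-06), and ICAM1, an adhesion molecule gene, by 1.48 ± 0.04 (4.12-fold, limma adjusted p = 1.98e-06). BCL2L1, a survival gene, fell by 0.91 ± 0.02 log2 (limma adjusted p = 2.36e-06) and CCND1, the cyclin D1 gene, by 0.96 ± 0.03 (limma adjusted p = 3.12e-06). The acute-phase genes SERPINA3, LBP, FGB, FGG, HP, SAA2 and A2M were at most 0.416 FPKM in any library and not tested. In KO2 minus KO1, 12 of the 19 target genes were lower, 0 higher and 7 not called, against 15% and 11.2% of all genes.

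**Figure D5:**
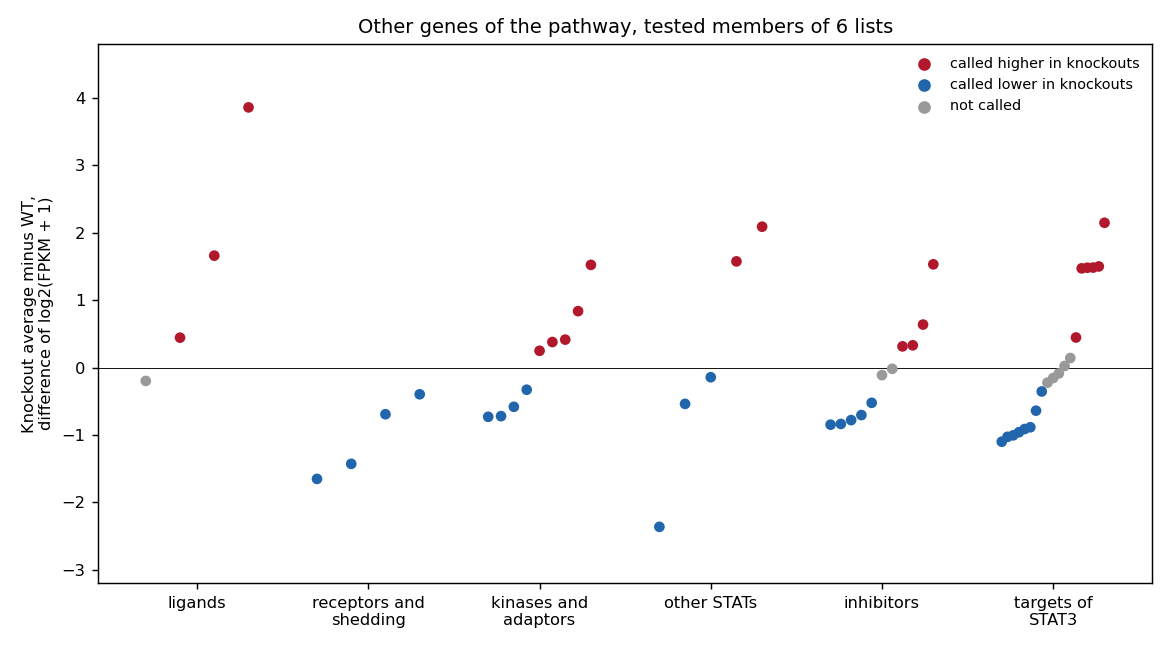
Difference of log2(FPKM + 1), knockout average minus WT (y axis), for the tested genes of 6 pathway lists (x axis), ordered within each list and coloured by call; each point is 1 gene. All 4 genes of the receptor and shedding list lie below 0, and the other lists hold genes on both sides or, for ligands, 3 called higher.

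The patterns most like those of 2 of the genes were sought among tested protein-coding genes, by the root mean square difference of log2(FPKM + 1), centred per gene, over the 6 libraries. For IL6 the nearest were CHAC1 (0.116), INHBB (0.192), MAGEA11 (0.230), TNFAIP3 (0.234) and ICAM1 (0.356). TNFAIP3, the gene of the ubiquitin-editing enzyme A20, averaged 4.67 ± 0.114 FPKM in KO2 and 18.1 ± 0.0450 in KO1, against 2.53 ± 0.188 in WT. ICAM1 averaged 4.48 ± 0.0418 FPKM in KO2 and 13.8 ± 0.352 in KO1, against 2.22 ± 0.0237 in WT (SD, n = 2 each). All 5 were high in KO1, and MAGEA11 had 0 reads in WT and belongs to a family of similar genes. For LIFR the nearest were ARMCX3 (0.0504), CLMP (0.0628), ECHDC3 (0.0750), COL6A1 (0.0778) and GPRIN3 (0.0815), each on a chromosome other than 5. COL6A1, a collagen VI chain gene, averaged 20.8 ± 0.532 FPKM in KO2 and 18.0 ± 0.215 in KO1, against 0.223 ± 0.0453 in WT. Among the 10 genes, the pairs nearest to each other were IL6ST with STAT3 (0.125), LIFR with SOCS3 (0.155) and IL11 with PIM1 (0.179).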

How the data were processed

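The deposited files hold FPKM values per Ensembl gene, computed by the authors for each library separately, per the file headers. HISAT2 2.0.5, featureCounts 1.5.0-p3 and build hg38 are named in the submitters' processing notes. The strand setting was not given in the sources used here, nor was the annotation release. GENCODE release 29 (GRCh38) held all 58735 IDs and gave names, coordinates and exon lengths. FPKM times exon length was a whole multiple of 1 step per library for 100% of values (tolerance 0.1 step), which gave read numbers. The FPKM denominator was 0.945 and 0.936 times the recovered total in WT, against 1.03 to 1.05 times in the knockout libraries. This split by group lowers knockout FPKM relative to WT, compared with scaling by the recovered total. Floors of 3 reads cover counting error only.

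Genes with at least 1 FPKM in 2 libraries (16046) were fitted as log2(FPKM + 1) by limma 3.58.1 (R 4.3.3). The model had 1 mean per group over all 6 libraries and a variance trend with level, without covariates, and the script was tested on simulated data. Replicate libraries differed by more than counting noise (chi-square per degree of freedom 2.40 in KO2, 1.80 in KO1 and 2.46 in WT). The 10 genes were all named. Pathway genes named were up to 4 per list with the smallest adjusted p, and 5 nearest patterns were named for IL6 and for LIFR. Genes at 0 or under the filter, overlapping genes, RICTOR and STAT5A beside STAT3 were also named, chosen after their values were seen. Some genes that this rule takes are not reported here. The genes and lists were chosen with earlier results of these data known. Alternatives were another pseudocount, no filter, quantile normalization, voom, a replicate block, 1 knockout group, and leaving out each library.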

Additional observations from a re-analysis of the deposited data

Results flagged for a closer look

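Each of the 10 genes is listed because its effect against WT differed between KO2 and KO1, tested as KO2 minus KO1 with limma over all genes (called in 26.2% of tested genes). On the log2(FPKM + 1) scale the effect was lower in KO2 by -2.27 for IL6, -0.84 for OSMR, -0.59 for IL11, -0.45 for LIF, -0.41 for IL6ST, -0.38 for PIM1 and -0.21 for STAT3. It was higher in KO2 by 0.94 for IL6R, 0.55 for SOCS3 and 0.29 for LIFR. IL6 and its receptor gene IL6R thus had opposite orders of the 2 knockout groups. The order of IL6 was built in, since IL6 entered the test only through its KO1 libraries.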

How the results depend on the processing

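Directions of the 10 genes held in all of the 442 repeats over 4 contrasts. A call was lost in 21 of these repeats and gained in 3, and the side of the threshold was kept in 418. The genes called in KO2 minus KO1 ranged from 1836 to 3897 when 1 library was left out, against 4203, and those called among the 10 genes from 5 to 10. The counts were lowest without a KO1 library (1836 and 1932), where IL6 was not tested. Fewer libraries were fitted there, and a group left with 1 library is assumed to vary like the others. The other 3 contrasts kept their counts within 1.5 times. With the knockouts as 1 group of 4, 7 of the 10 were called. Voom on recovered reads, scaled by library size, moved the median of all genes in the knockout average to 0.17 log2, against 0.02, and STAT3 was then at 0.36 and IL6ST at 0.53.

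Replicate 1 minus replicate 2 correlated across genes at 0.02 between KO1 and WT, -0.004 between KO2 and WT and -0.04 between KO2 and KO1. No shift shared by same-numbered libraries was thus seen, which does not show that they were handled apart. With a replicate block 12857, 12344, 12528 and 3467 genes were called in the knockout average, KO1, KO2 and KO2 minus KO1, and 10, 10, 9 and 10 of the 10 genes. Depth limits IL6 in KO2 (32 reads) and IL11 in WT (119 reads).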
